A study of Sus scrofa with 15 samples.

Results

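The genes described here encode the subunits of the proteasome and the factors that assemble, activate or inhibit it. They were taken by symbol, as every table entry whose name begins with PSM, a letter from A to G and a digit, and 49 of the 43294 features in the table matched. These were 8 genes of the 20S alpha rings, 11 of the 20S beta rings, 9 of the 19S base, 8 of the 19S lid, 3 assembly factors of the 19S, 5 activators and inhibitors, 4 assembly chaperones of the 20S and PSMC3IP, a recombination factor that shares only the letters. The symbols were chosen by name and not by any value.

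The proteasome is the protease that degrades ubiquitin-tagged proteins in the cytosol and nucleus. Its 20S core is a barrel of stacked rings, in which the alpha subunits form the outer gate and the beta subunits the inner rings with the active sites, and its 19S cap binds the tagged protein, removes the ubiquitin (the lid) and unfolds and feeds the chain (the base, with its AAA ATPases). In early embryos it removes maternal proteins while control passes from the stored transcripts of the oocyte to the embryonic genome.

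RNA was sequenced from 15 pig libraries in 5 groups of 3, and the comparisons ask how the treated, older and donor samples differ from untreated cloned embryos at the 4-cell stage. PFF are primary fetal fibroblasts of passage 2 to 5, the donor cells of nuclear transfer, and each embryo library came from a pool of 30 embryos made by somatic cell nuclear transfer (SCNT). SCNT4c and SCNT8c are untreated embryos at the 4-cell and 8-cell stage. SCNT4c-KG are 4-cell embryos injected with 1000 ng/µl mRNA of KDM4A, a demethylase of histone H3 lysine 9, at 5 h after activation and kept until 48 h in 0.1 µM GSK126, an inhibitor of the H3 lysine 27 methyltransferase EZH2. SCNT4c-TDG are 4-cell embryos from a puromycin-selected donor line with a doxycycline-inducible vector for TDG, a DNA glycosylase of active demethylation, kept in 500 ng/ml doxycycline from 40 to 72 h. No control line with an empty vector, with or without doxycycline, was analysed here. The effects of the line, of doxycycline and of TDG therefore cannot be told apart.

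The values are read counts per gene that the authors divided by a factor for each library, called the normalized signal here. The reads behind them numbered 12354649 to 15390472 in the SCNT4c-KG libraries and 17757929 to 22868038 in the other 12. Levels are given as the signal, differences as log2 fold changes of the signal + 1 with their standard error, and a gene is called when limma gives a Benjamini-Hochberg adjusted p under 0.05 over all features and the fold change exceeds 2. Nothing in the labels says that the libraries came from separate cultures or nuclear transfer sessions, so p-values measure the spread between these samples, which may be technical. In pools of embryos, fewer cells of a type and less RNA per cell cannot be told apart.

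Titles and descriptions give the SCNT4c samples different numbers, so these libraries are called a, b and c, and the descriptions of the SCNT4c-KG samples repeat names that the table gives to the untreated ones. The groups were therefore checked on the treated genes. KDM4A had values of 313, 136 and 134 in SCNT4c and of 1437, 1476 and 1429 in SCNT4c-KG, and TDG had values of 1659, 939 and 2541 in SCNT4c and of 56925, 59944 and 49857 in SCNT4c-TDG. KDM4A was also at 852, 555 and 918 in SCNT4c-TDG, which had no injection, and TDG at 4474, 3886 and 4738 in SCNT4c-KG, all above SCNT4c. Each gene was highest among embryos in every library of the group labelled for it, but as KDM4A was above SCNT4c without its mRNA too, it is a weaker check of the SCNT4c-KG label. The summed level of 13 fibroblast markers was 3962251 to 4210918 in PFF and at most 5688 in an embryo library. Among embryos it was 4410 to 5688 in SCNT4c, 2509 to 3700 in SCNT4c-KG, 1659 to 2193 in SCNT4c-TDG and 2165 to 2453 in SCNT8c. The summed level of 11 oocyte and maternal markers was 72506 to 92362 in SCNT4c, 26465 to 51005 in SCNT4c-KG, 11245 to 16974 in SCNT4c-TDG, 38259 to 47470 in SCNT8c and 11.5 to 20.3 in PFF, with GDF9, BMP15 and MOS at 0 in every embryo library. These lower marker sums move with every comparison of embryos to SCNT4c below, and their part in the results was not tested.

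Some entries cannot be read as the level of their gene. The table gives each entry a locus, and for 30 of the 49 entries it is exactly the annotated gene. For the other 19 it is wider than the gene, by 2.68 to 221 kb, and holds at least 1 other entry, in 16 cases another known gene. Of these 19 wide entries, 11 had a mean under 50 in PFF (median over the 19 of 31.0), against 2 of the 30 exact ones (median 2759). PSMD4, PSMF1 and PSMG4 were listed at 0 in all 15 libraries, and PSMA7, PSMC1, PSMD11 and PSMD14 did not exceed 21.2 in any library. These 7 entries are all wide, and 5 of them name subunits of the constitutive 26S proteasome. Their values are the listed ones only, and the cause was not tested.

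For the genes below, the promoter is the stretch from 250 bases before to 50 after the annotated start, read from the RefSeq annotation of Sscrofa11.1. The core letters of an ETS factor site, CCGGAAG on either strand, were found in 18 of 48 proteasome promoters (37.5%) and in 11.0% of all 19534 promoters. The CCAAT box (CCAAT) was found in 35.4% of both sets. The GC box (GGGCGG) was in 60.4% against 50.6% and the TATA box (TATAAA) in 6.25% against 10.9%. The antioxidant response element, the site of the proteasome regulator NFE2L1, was searched by its core TGACNNNGC, which was in 10.4% against 12.4%, and by the form TGACTCAGC, a special case of that core, which was in 0 of 48 members and in 0.389% of all promoters. These are counts of letters, with no test. Of the 18 proteasome genes called higher in both treated groups, 7 held the core (38.9%), beside 37.5% of all 48. Among these 7 were PSMB1 and PSMD7, which had to differ because of the filter on low values given below. PSMA2, PSMA3, PSMA5, PSMB4, PSMB6 and PSMD8 were among the 11 without the core. The windows of PSMB3, PSMC6 and PSMD7 are shown as genes that were higher in both treated groups and hold the core, that of PSMB4 as one that was higher and does not, and that of PSMD13 as one that holds it and was not called higher. Capitals mark CCGGAAG or its reverse complement, and each line runs 5′ to 3′ on the strand of the gene.
PSMB3, chr12:23357567-23357866, minus strand: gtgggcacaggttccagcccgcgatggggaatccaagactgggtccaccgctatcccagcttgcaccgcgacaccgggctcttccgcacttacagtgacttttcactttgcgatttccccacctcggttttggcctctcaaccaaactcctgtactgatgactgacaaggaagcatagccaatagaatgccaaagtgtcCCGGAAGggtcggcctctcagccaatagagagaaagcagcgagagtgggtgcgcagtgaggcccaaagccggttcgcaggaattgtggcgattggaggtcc
PSMC6, chr1:182328820-182329119, plus strand: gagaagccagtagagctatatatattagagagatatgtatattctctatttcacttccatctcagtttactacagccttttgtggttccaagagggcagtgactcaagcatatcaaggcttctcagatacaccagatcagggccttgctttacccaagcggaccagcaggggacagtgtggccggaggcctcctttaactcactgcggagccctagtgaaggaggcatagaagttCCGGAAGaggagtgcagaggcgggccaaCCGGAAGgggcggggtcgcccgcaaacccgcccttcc
PSMD7, chr6:17047170-17047469, plus strand: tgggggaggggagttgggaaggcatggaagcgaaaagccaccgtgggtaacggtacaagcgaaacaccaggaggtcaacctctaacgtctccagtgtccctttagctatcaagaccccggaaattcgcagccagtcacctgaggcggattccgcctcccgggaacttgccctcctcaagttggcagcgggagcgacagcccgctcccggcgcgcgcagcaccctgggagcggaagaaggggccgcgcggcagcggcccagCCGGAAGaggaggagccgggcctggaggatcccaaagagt
PSMB4, chr4:97837860-97838159, minus strand: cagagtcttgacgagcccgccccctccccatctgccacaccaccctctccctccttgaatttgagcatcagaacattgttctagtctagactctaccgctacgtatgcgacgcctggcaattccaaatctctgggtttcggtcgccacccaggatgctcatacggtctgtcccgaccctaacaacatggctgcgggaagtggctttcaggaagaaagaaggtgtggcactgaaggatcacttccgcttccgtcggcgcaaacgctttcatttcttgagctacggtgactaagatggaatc
PSMD13, chr2:54858-55157, plus strand: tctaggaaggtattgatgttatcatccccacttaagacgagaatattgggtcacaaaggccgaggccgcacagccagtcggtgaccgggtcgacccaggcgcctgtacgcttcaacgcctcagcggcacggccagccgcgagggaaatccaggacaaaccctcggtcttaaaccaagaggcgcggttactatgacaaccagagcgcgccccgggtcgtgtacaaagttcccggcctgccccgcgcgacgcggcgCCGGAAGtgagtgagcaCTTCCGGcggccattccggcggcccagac
The first base of the core lay 51 bases before the start in PSMB3, 15 before and 13 after it in PSMC6, 10 after it in PSMD7, and 4 and 21 after it in PSMD13.

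The constitutive genes of the 20S core lay closer together in the donor cells than in the untreated embryos. This was read per length and without a test, as the signal per kb of exon, over the 10 genes of the constitutive 20S whose entry is exact (PSMA1, PSMA2, PSMA4, PSMA5 and PSMB2 to PSMB7). In PFF the highest of them was 2.39 to 2.74 times the lowest in each library. In SCNT4c this ratio was 40.4 to 46.0, with PSMB2 the highest and PSMB3 the lowest gene in every library. It was 12.3 to 14.6 in SCNT4c-KG, 10.2 to 13.2 in SCNT4c-TDG and 40.5 to 44.5 in SCNT8c, so the ranges of both treated groups lay between those of PFF and SCNT4c, and that of SCNT8c overlapped SCNT4c. The geometric mean per kb over the 10 genes was 2748 ± 79.6 (SD, n = 3) in PFF, 1564 ± 327 in SCNT4c, 6550 ± 768 in SCNT4c-KG, 6151 ± 424 in SCNT4c-TDG and 3279.7 ± 1121 in SCNT8c. The 10 exact genes of the 19S base and lid (PSMC2, PSMC4, PSMC6, PSMD1, PSMD2, PSMD3, PSMD7, PSMD8, PSMD12 and PSMD13) were more uneven, with ratios of 21.0 to 22.9 in PFF, 838 to 4143 in SCNT4c, 93.2 to 109.5 in SCNT4c-KG, 85.8 to 167 in SCNT4c-TDG and 1269 to 2069 in SCNT8c. PSMD7 was the lowest of these in PFF, SCNT4c and SCNT8c, and PSMD3 in both treated groups. The PSMD7 values of SCNT4c and SCNT8c, given below, stand for few reads, and the ratios of these groups depend on them.

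**Figure D1:**
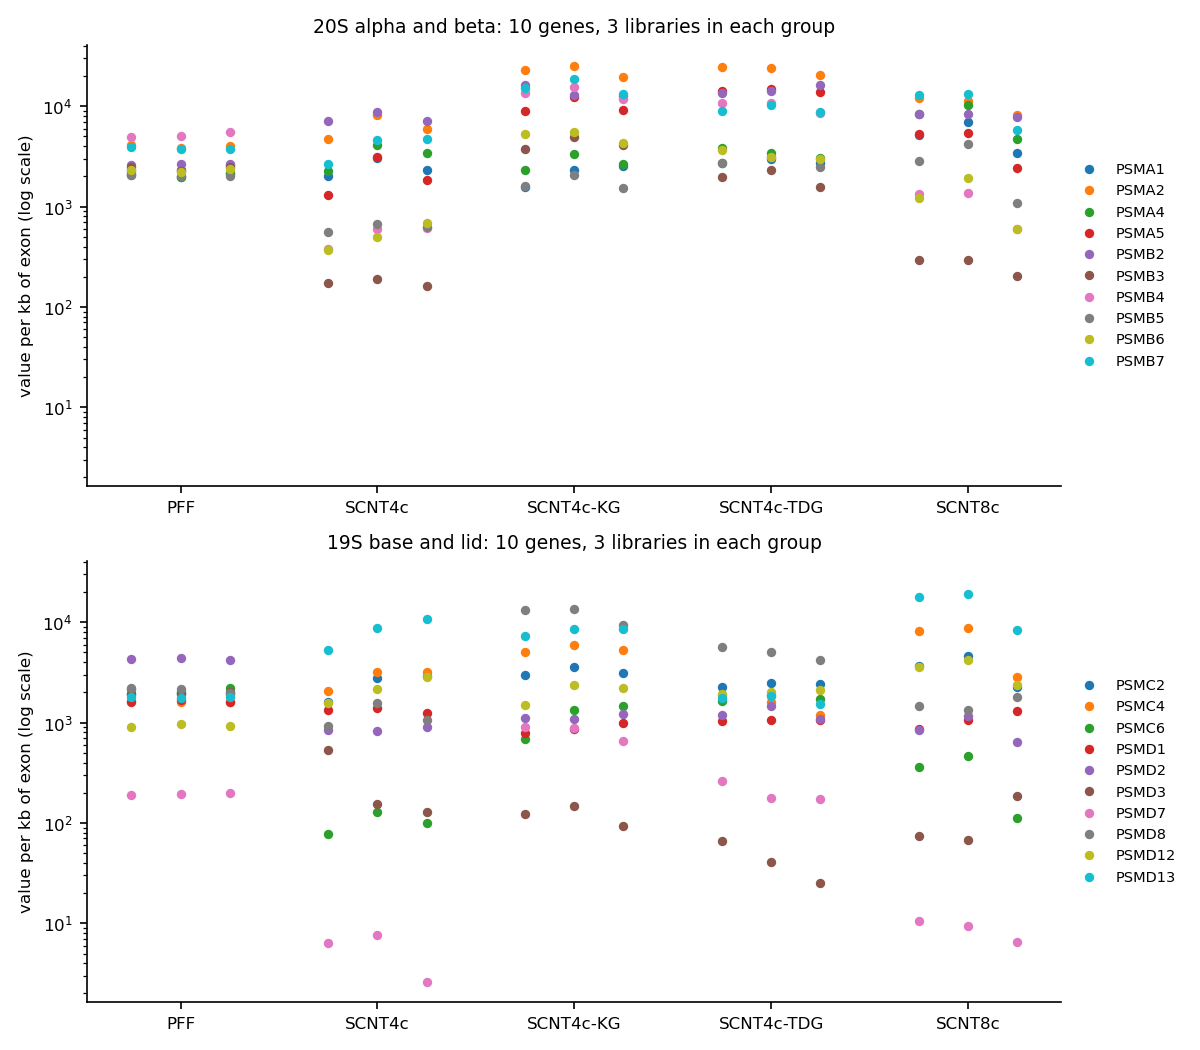
Signal per kb of exon (log axis) of 10 genes of the 20S core (upper panel) and 10 of the 19S (lower panel), 1 point per library, 3 libraries in each group, 1 colour per gene. Within a library, the points of the upper panel span a ratio of at most 2.74 in PFF and of at least 40.4 in SCNT4c.

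More than 1 in 2 of the proteasome genes that could be tested were called after either treatment, nearly all of them as higher. In SCNT4c-KG, 22 of the 40 members tested were higher than in SCNT4c and 1 was lower, where 17.6% of all 18942 features were higher, 19.6% lower and 37.2% called in either direction. In SCNT4c-TDG, 20 of 40 were higher and 3 lower, where 15.7% of all features were higher, 17.6% lower and 33.3% called. The median log2 fold change of the members was 1.30 in SCNT4c-KG and 1.29 in SCNT4c-TDG, beside -0.30 and -0.26 over all features, and both members' medians were the same with PSMB1, which was at 0 in SCNT4c, set to its bound. The libraries did not overlap between the groups for 30 of 40 members in SCNT4c-KG (27 above, 3 below) and for 32 of 40 in SCNT4c-TDG (25 above, 7 below), where the share over all features was 53.9% and 58.4%. Both comparisons share the SCNT4c libraries, so their values stand side by side and are not independent. Of the 49 members, 40 had a mean of at least 10 over the 12 embryo libraries, and 4 of these in SCNT4c-KG and 3 in SCNT4c-TDG passed with a compared group under 10 (PSMB1, PSMC3 and PSMD7 in SCNT4c, PSMB1 also in SCNT4c-TDG, and PSMB9 in SCNT4c-KG). PSMC3 passed through SCNT4c-KG alone and PSMB1 and PSMD7 through the treated groups, so these had to differ and their calls support nothing. The counts are a description of the tested members only.

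**Figure D2:**
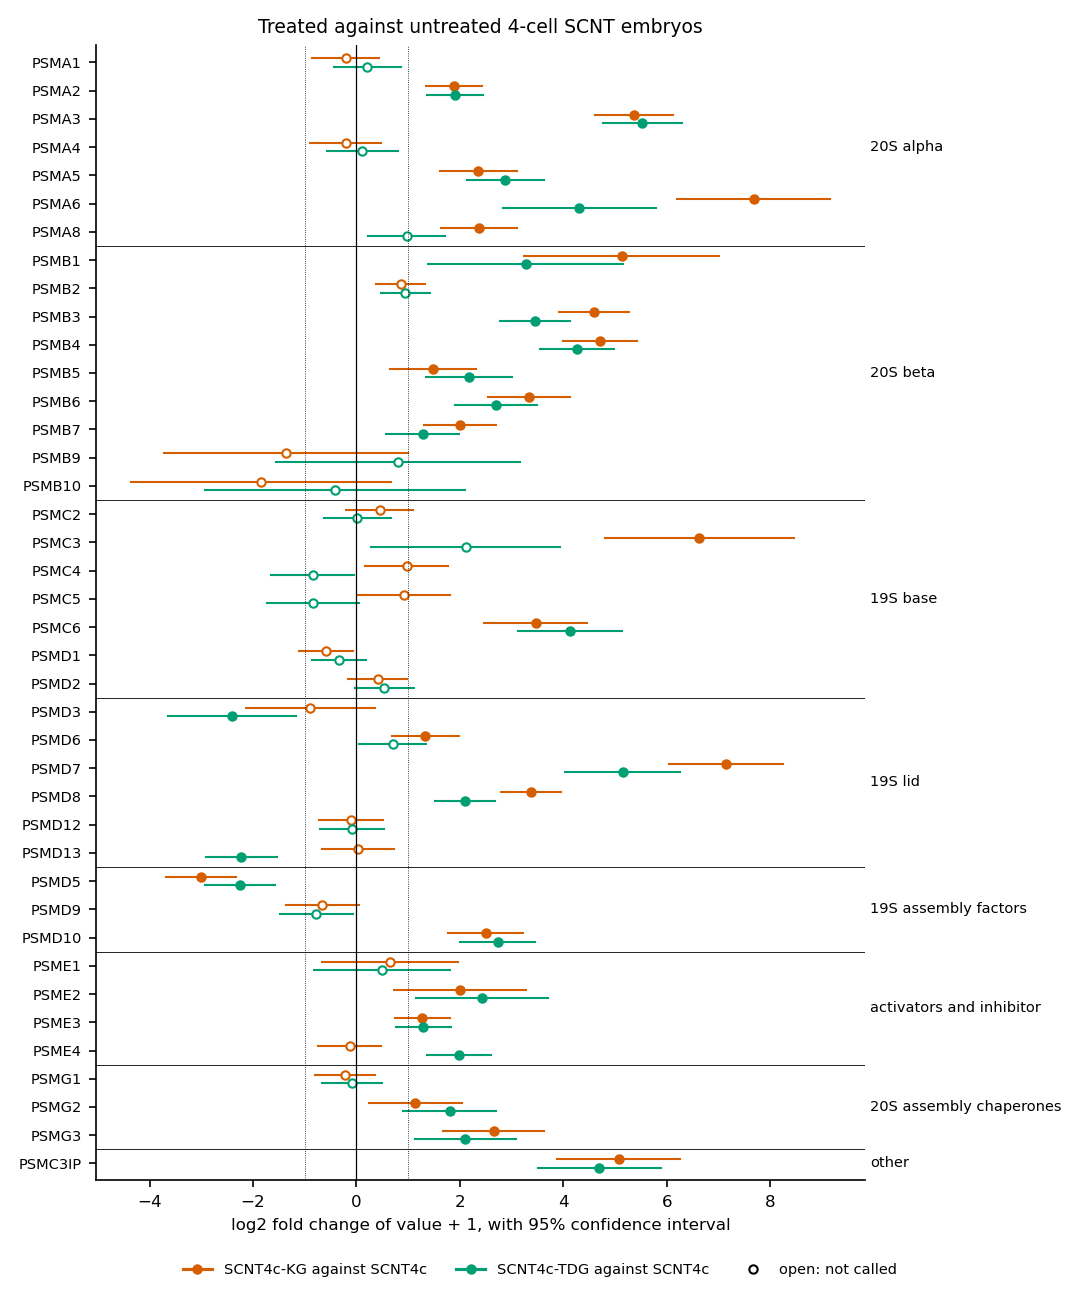
Log2 fold change of the signal + 1 for each tested member, SCNT4c-KG (orange) and SCNT4c-TDG (green) against SCNT4c, with 95% confidence intervals from limma (n = 3 libraries a group). Filled points were called, dotted lines mark a fold change of 2, and most filled points lie to the right; the value of PSMB1, at 0 in SCNT4c, depends on the 1 added to the signal.

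Of the 7 tested alpha genes, 5 were higher in SCNT4c-KG and 4 in SCNT4c-TDG, beside 17.6% and 15.7% of all features, and none was lower. PSMA3 (chr1:187342231-187371149, plus strand), a subunit of the alpha ring, had values of 249, 279 and 233 in SCNT4c, 8756, 12553 and 10527 in SCNT4c-KG and 11198, 13143 and 10975 in SCNT4c-TDG. Every treated library was far above every untreated one. Its log2 fold change was 5.37 ± 0.36 (adjusted p = 5.05e-08) with KDM4A and GSK126 and 5.53 ± 0.36 (adjusted p = 1.03e-07) with TDG, or 41.8-fold and 46.4-fold by the means. The PSMA3 entry is wide by 13.9 kb. PSMA2 had values of 4534, 7893 and 5756 in SCNT4c, 22330.1, 24534 and 18912 in SCNT4c-KG and 23760.1, 22995 and 19802 in SCNT4c-TDG. PSMA5 had values of 1403, 3364 and 1986 in SCNT4c, 9613, 13229.6 and 9952 in SCNT4c-KG and 15388, 16094 and 15018 in SCNT4c-TDG. Neither gene overlapped between treated and untreated libraries, and both rose, by 1.88 ± 0.26 and 1.90 ± 0.26 for PSMA2 and by 2.36 ± 0.35 and 2.88 ± 0.35 for PSMA5 on the log2 scale in SCNT4c-KG and SCNT4c-TDG.

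The other alpha genes differed from this. PSMA1 had values of 2470.3, 3779 and 2895 in SCNT4c, 1963, 2848 and 3125 in SCNT4c-KG and 3369, 3682 and 3401 in SCNT4c-TDG. PSMA4 had values of 3354, 6182 and 5137 in SCNT4c, 3457, 5039 and 3953 in SCNT4c-KG and 5792, 5078 and 4602 in SCNT4c-TDG. The groups of both genes overlapped, and the intervals of the log2 fold change were -0.85 to 0.43 and -0.43 to 0.86 for PSMA1 and -0.89 to 0.47 and -0.56 to 0.79 for PSMA4. PSMA6 had values of 9.46, 20.1 and 4.15 in SCNT4c, 2164, 2117 and 2127 in SCNT4c-KG, 224, 198 and 198 in SCNT4c-TDG and 36.6, 25.5 and 31 in PFF. It was higher in SCNT4c-KG by 7.68 ± 0.69 (adjusted p = 1.07e-06) and in SCNT4c-TDG by 4.31 ± 0.69 (adjusted p = 0.000262), but its entry is wide by 221 kb and low in PFF, and the part of this in its values was not tested.

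PSMA8 is the alternative of PSMA7, known from the proteasome of the testis. It had values of 320.2, 427 and 305 in SCNT4c, 1489.8, 2353 and 1653 in SCNT4c-KG, 543, 538 and 1088 in SCNT4c-TDG and 721, 653 and 838 in SCNT8c, and was listed at 0 in the 3 PFF libraries. PSMA8 was thus detected in every embryo library and in no PFF library, at least 91.8-fold higher in SCNT4c than a count of 3 reads in a PFF library would allow. It was higher in SCNT4c-KG than in SCNT4c by 2.37 ± 0.35 (adjusted p = 0.000115). In SCNT4c-TDG the log2 fold change of 0.97 ± 0.35 had an adjusted p of 0.0417 and missed the fold limit. The level of PSMA7 itself cannot be set beside it, since that entry was at 0 in 14 libraries and at 1.63 in 1 SCNT4c-KG library.

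**Figure D3:**
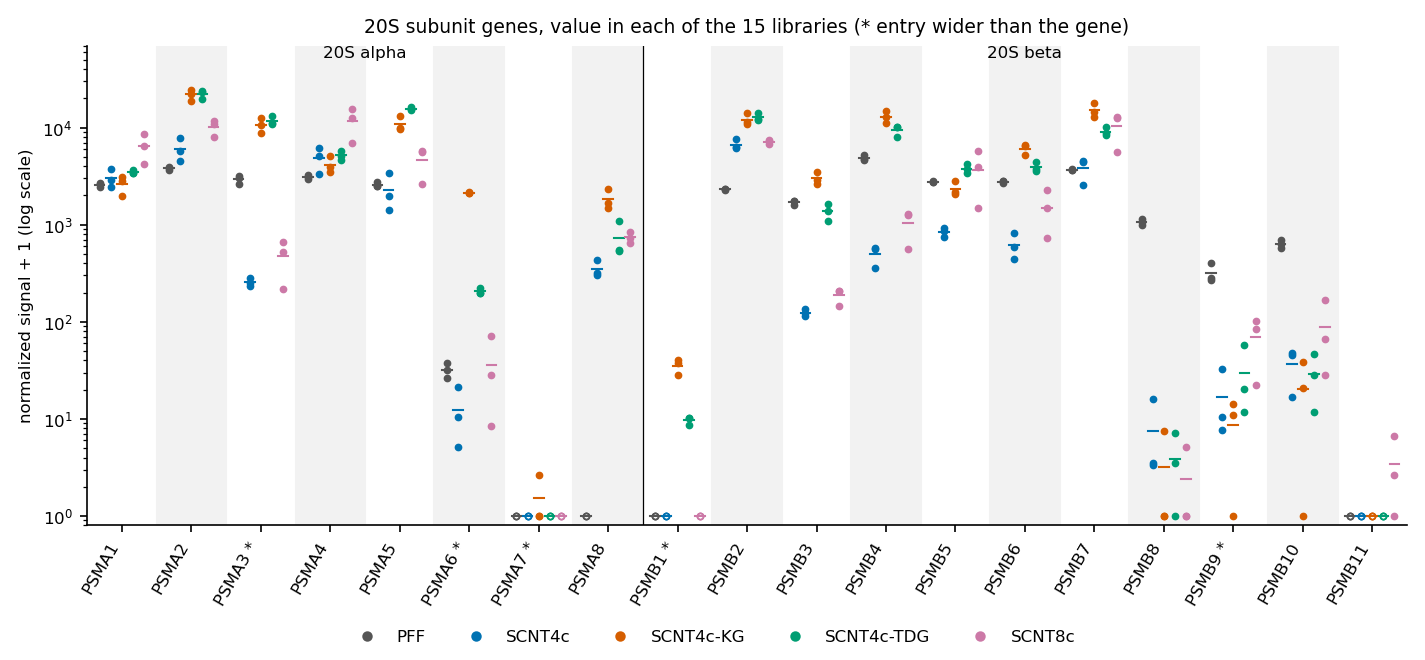
Normalized signal + 1 (log axis) of the 19 genes of the 20S core in every library, with a bar at the mean of each group; open points mark groups listed at 0 in all 3 libraries, and a star marks entries wider than the gene. PSMA3, PSMB3, PSMB4 and PSMB6 do not exceed 824 in SCNT4c and are at least 1095 in both treated groups, and PSMB8, PSMB9 and PSMB10 are highest in PFF.

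Among the 9 tested beta genes, 6 were higher in SCNT4c-KG and 6 in SCNT4c-TDG, beside 17.6% and 15.7% of all features, and none was lower. PSMB4 (chr4:97835544-97837909, minus strand), a structural beta subunit, had values of 355, 560.1 and 579.5 in SCNT4c, 12949, 14756 and 11035 in SCNT4c-KG and 10085, 10249.9 and 8068 in SCNT4c-TDG. PSMB3 (chr12:23347060-23357616, minus strand), another structural subunit, whose promoter is printed above, had values of 123, 134 and 113 in SCNT4c, 2623, 3468 and 2901 in SCNT4c-KG and 1386, 1642 and 1095 in SCNT4c-TDG. Neither gene overlapped between treated and untreated libraries. The log2 fold changes of PSMB4 were 4.72 ± 0.34 (adjusted p = 8.7e-08) in SCNT4c-KG and 4.27 ± 0.34 (adjusted p = 5.18e-07) in SCNT4c-TDG. Those of PSMB3 were 4.59 ± 0.32 (adjusted p = 6.98e-08) and 3.45 ± 0.32 (adjusted p = 1.86e-06).

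The genes of the active sites rose as well. PSMB6, the caspase-like subunit, had values of 439, 591 and 824 in SCNT4c, 6409.9, 6636 and 5192 in SCNT4c-KG and 4443, 3709.7 and 3605 in SCNT4c-TDG. PSMB7, the trypsin-like subunit, had values of 2552, 4454 and 4516 in SCNT4c, 14519, 17922 and 12884 in SCNT4c-KG and 8725, 10018 and 8391 in SCNT4c-TDG. PSMB5, the chymotrypsin-like subunit and the target of bortezomib, had values of 750.1, 916 and 852 in SCNT4c, 2166, 2797 and 2070.4 in SCNT4c-KG and 3703, 4259 and 3380.4 in SCNT4c-TDG. No treated library of these 3 genes overlapped an untreated one. In SCNT4c-KG the log2 fold changes were 3.34 ± 0.37 for PSMB6, 2.01 ± 0.33 for PSMB7 and 1.47 ± 0.39 for PSMB5 (adjusted p = 9.54e-06, 0.000277 and 0.00838). In SCNT4c-TDG they were 2.70 ± 0.37, 1.28 ± 0.33 and 2.17 ± 0.39 (adjusted p = 7.38e-05, 0.0075 and 0.000644). PSMB2, the highest beta gene of SCNT4c per kb, had values of 6147, 7598 and 6256 in SCNT4c and passed the adjusted p but not the fold limit, with 0.85 ± 0.22 (adjusted p = 0.00702) and 0.95 ± 0.22 (adjusted p = 0.00399). PSMB1 was listed at 0 in PFF, SCNT4c and SCNT8c, at 39.2, 36.8 and 27.1 in SCNT4c-KG and at 9.2, 9.21 and 7.65 in SCNT4c-TDG. It is 1 of the 6 in both counts, at least 13.1-fold and 3.31-fold higher against 3 reads in an SCNT4c library. However, it comes from a wide entry that entered the fit through the treated groups alone.

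PSMB8, PSMB9 and PSMB10 replace PSMB5, PSMB6 and PSMB7 in the immunoproteasome, which interferon induces, and PSMB11 takes that place in the thymus. PSMB8 did not exceed 14.9 in any embryo library and was not tested there. PSMB9 (wide entry) had values of 9.46, 31.5 and 6.64 in SCNT4c, 13.1, 0 and 9.97 in SCNT4c-KG, 56.9, 19.2 and 10.7 in SCNT4c-TDG and 84, 99.8 and 21.1 in SCNT8c. PSMB10 had values of 45, 47.2 and 15.8 in SCNT4c, 37.6, 0 and 19.9 in SCNT4c-KG, 45.2, 10.7 and 27.5 in SCNT4c-TDG and 65.3, 167 and 27.5 in SCNT8c. Each of the other embryo groups overlapped SCNT4c, with adjusted p-values of 0.346 and 0.607 for PSMB9 and of 0.229 and 0.809 for PSMB10 after treatment. PSMB11 was at 0 in 13 libraries and at 5.60 and 1.66 in 2 SCNT8c libraries.

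Of the 7 tested genes of the 19S base, 2 were higher in SCNT4c-KG and 1 in SCNT4c-TDG (28.6% and 14.3%), beside the 37.2% and 33.3% of all features called in either direction, and none was lower. PSMC6 (chr1:182329070-182354959, plus strand), an ATPase of the base, had values of 130.1, 218 and 169 in SCNT4c, 1168, 2273 and 2458 in SCNT4c-KG and 2782, 3183 and 2937 in SCNT4c-TDG. It rose by 3.46 ± 0.47 (adjusted p = 5.65e-05) and by 4.13 ± 0.47 (adjusted p = 1.29e-05), with no overlap. The second was PSMC3, an ATPase with a wide entry, at 6.31, 4.37 and 0 in SCNT4c, 389, 288 and 339 in SCNT4c-KG and 14.2, 13.8 and 13 in SCNT4c-TDG. It entered the fit through SCNT4c-KG alone, so its call there is only a description, and it was not called in SCNT4c-TDG. PSMC4, PSMC5, PSMC2, PSMD1 and PSMD2 were not called in either. Of these, PSMD1, the large scaffold of the base, had values of 4372, 4498 and 4062 in SCNT4c, 2565, 2796 and 3249 in SCNT4c-KG and 3410.2, 3415 and 3438 in SCNT4c-TDG. All treated libraries were below all untreated ones. Its log2 fold change of -0.59 ± 0.24 was the lowest of the tested base genes in SCNT4c-KG, with intervals of -1.11 to -0.07 and -0.85 to 0.19 in the 2 treatments. PSMC4 had values of 3157, 4942 and 4971 in SCNT4c, 7818, 9104 and 8182 in SCNT4c-KG and 2942, 2468 and 1850.1 in SCNT4c-TDG. PSMC5 (wide entry) was at 808, 1234 and 1358 in SCNT4c, at 1877, 2544 and 1894 in SCNT4c-KG and at 595, 674 and 581 in SCNT4c-TDG. Both were above SCNT4c in all SCNT4c-KG libraries and below it in all SCNT4c-TDG libraries, without a call against SCNT4c. PSMC2 and PSMD2 lay between 2415 and 7740 in these 9 libraries, with log2 fold changes of at most 0.54.

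Of the 6 tested lid genes, 3 were higher in SCNT4c-KG and none was lower, and in SCNT4c-TDG 2 were higher and 2 lower. Over all features, 17.6% were higher and 19.6% lower in SCNT4c-KG, and 15.7% and 17.6% in SCNT4c-TDG. PSMD7 (chr6:17047420-17057170, plus strand), the partner of the deubiquitinase PSMD14, had values of 10.3, 12.2 and 4.15 in SCNT4c, 1455, 1423 and 1066 in SCNT4c-KG and 422, 288 and 277 in SCNT4c-TDG. It was nearly absent from untreated embryos, with log2 fold changes of 7.15 ± 0.52 (adjusted p = 1.04e-07) and 5.14 ± 0.52 (adjusted p = 4.36e-06). PSMD7 entered the fit through the treated groups alone, so its calls, which the counts include, are only a description. PSMD8 had values of 1470.2, 2507 and 1662 in SCNT4c, 21085, 21608 and 14903 in SCNT4c-KG and 9032, 7951 and 6679 in SCNT4c-TDG, and rose by 3.37 ± 0.27 and 2.10 ± 0.27 (adjusted p = 3.35e-07 and 4.49e-05). PSMD6 (wide entry) had values of 1999, 2841 and 3407 in SCNT4c, 6686, 8318 and 5579 in SCNT4c-KG and 4334, 4346 and 4430.2 in SCNT4c-TDG. It was called in SCNT4c-KG (1.33 ± 0.31, adjusted p = 0.00337) and not in SCNT4c-TDG (0.70 ± 0.31, adjusted p = 0.0876), and the difference between the treatments did not pass the test (adjusted p = 0.179).

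The lid genes that fell did so with TDG. PSMD13 (chr2:55108-68854, plus strand), a structural lid subunit, had values of 8388, 13769 and 16794 in SCNT4c, 11399, 13610.3 and 13316 in SCNT4c-KG and 2779, 2875 and 2389.6 in SCNT4c-TDG. It overlapped SCNT4c in SCNT4c-KG (0.03 ± 0.33, adjusted p = 0.951) and fell in SCNT4c-TDG (-2.22 ± 0.33, adjusted p = 0.00012) to a level close to the 2828, 2773 and 2856 of PFF. PSMD3 had values of 1171, 335 and 276 in SCNT4c, 265, 319 and 201 in SCNT4c-KG and 145, 89 and 55.1 in SCNT4c-TDG. It fell in SCNT4c-TDG (-2.40 ± 0.58, adjusted p = 0.00536) and was not called in SCNT4c-KG (-0.89 ± 0.58, adjusted p = 0.239). The difference of PSMD3 between the treatments was not called, and library a of SCNT4c stood far above b and c. PSMD12 had values of 6066, 8315 and 10906 in SCNT4c, 5748, 9119 and 8377 in SCNT4c-KG and 7356, 7687 and 8118 in SCNT4c-TDG, which overlapped in both comparisons.

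**Figure D4:**
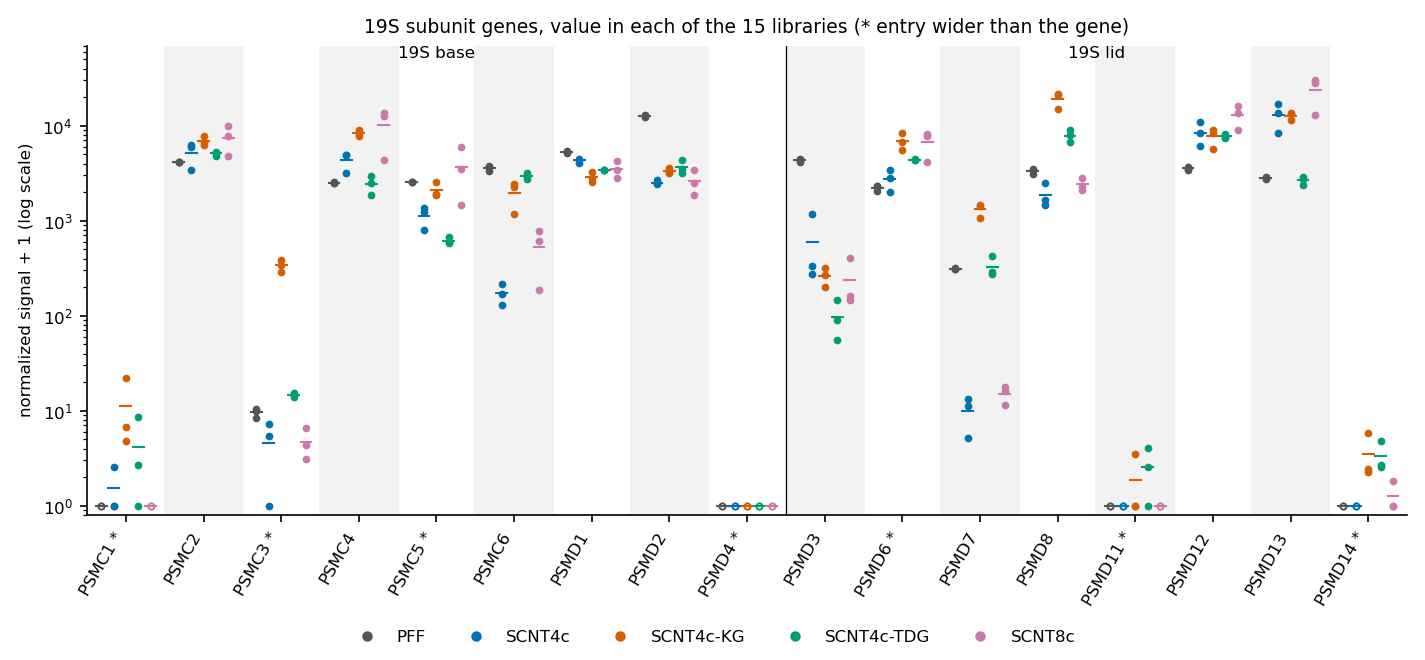
Normalized signal + 1 (log axis) of the 17 genes of the 19S base and lid in every library, with a bar at the mean of each group; open points mark groups listed at 0 in all 3 libraries, and a star marks entries wider than the gene. PSMD7 does not exceed 16.8 in SCNT4c and SCNT8c and is at least 277 in both treated groups, and PSMD13 in SCNT4c-TDG lies with PFF, below the other embryo groups.

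The assembly factors of the 19S, which bind the ATPases before the base is complete, moved in opposite directions. PSMD5 had values of 2674, 4108 and 4730.0 in SCNT4c, 423, 469.5 and 497 in SCNT4c-KG and 723, 884 and 756 in SCNT4c-TDG. It was the only member lower in SCNT4c-KG (-3.01 ± 0.32, adjusted p = 5.51e-06) and was lower in SCNT4c-TDG (-2.25 ± 0.32, adjusted p = 9.15e-05). PSMD10, also known as gankyrin, had values of 350.2, 737 and 397 in SCNT4c, 2507, 2815 and 2656 in SCNT4c-KG and 2986, 3249 and 3095 in SCNT4c-TDG. It was higher by 2.50 ± 0.34 (adjusted p = 6.08e-05) and 2.73 ± 0.34 (adjusted p = 3.05e-05). Both entries are wide, by 51.0 kb for PSMD5 and 84.7 kb for PSMD10. PSMD9, the third factor, had an exact entry and values of 2903, 2717 and 2888 in SCNT4c, 2380.0, 2009 and 1204 in SCNT4c-KG and 1595, 1719 and 1641 in SCNT4c-TDG, all treated ones below all untreated ones, without a call (adjusted p = 0.126 and 0.0812).

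Of the 3 tested chaperones of 20S assembly, PSMG2 and PSMG3 were higher in both treated groups and PSMG1 was not called. Over all features, 17.6% were higher in SCNT4c-KG and 15.7% in SCNT4c-TDG. PSMG3 had values of 148, 450.0 and 477 in SCNT4c, 2022, 2148 and 1841 in SCNT4c-KG and 1466, 1462 and 1184 in SCNT4c-TDG, with log2 fold changes of 2.65 ± 0.46 and 2.10 ± 0.46 (adjusted p = 0.000428 and 0.00264). PSMG2, whose entry is wide by 19.7 kb, was at 659, 1057 and 1014 in SCNT4c, at 1890.0, 1887 and 2110.3 in SCNT4c-KG and at 3459, 3786 and 2289 in SCNT4c-TDG, with 1.14 ± 0.42 and 1.80 ± 0.42 (adjusted p = 0.0449 and 0.00426). The treated libraries of both lay above the untreated ones, PSMG2 in SCNT4c-KG by the least. Without any 1 of the 6 libraries, PSMG2 was not called in SCNT4c-KG (0.92 to 1.26, adjusted p = 0.0666 to 0.151). PSMG1, the partner of PSMG2 in 1 heterodimer, had values of 6723, 5447 and 4841 in SCNT4c, 5217, 5317 and 4079.6 in SCNT4c-KG and 4969.8, 5192 and 5748 in SCNT4c-TDG, which overlapped.

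The activators open the gate of the 20S without ubiquitin. PSME3, the nuclear 11S activator, had values of 2027, 1503 and 1419.8 in SCNT4c, 3909, 4378 and 3579 in SCNT4c-KG and 3853, 4398 and 3768 in SCNT4c-TDG, and rose by 1.27 ± 0.25 and 1.29 ± 0.25 (adjusted p = 0.0011 and 0.00108). PSME2, an interferon-inducible 11S subunit, was at 118, 123 and 39.9 in SCNT4c, at 428, 289 and 311 in SCNT4c-KG and at 567, 414 and 395 in SCNT4c-TDG, and rose by 2.00 ± 0.60 and 2.43 ± 0.60 (adjusted p = 0.0163 and 0.00593). Both genes were above every SCNT4c library in both treatments. PSME2 was not called in SCNT4c-KG without library c of SCNT4c or replicate 1 of SCNT4c-KG (1.48 to 1.83, adjusted p = 0.0567 to 0.0806). PSME1, the partner of PSME2, with an entry wide by 2.68 kb, was at 211, 213 and 163 in SCNT4c, at 457, 350.3 and 175 in SCNT4c-KG and at 310.2, 404 and 165 in SCNT4c-TDG and overlapped (0.64 ± 0.62 and 0.50 ± 0.62, adjusted p = 0.426 and 0.561). PSME4 (chr3:87231510-87337709, plus strand), the nuclear activator PA200 that acts on histones, had values of 1216, 857 and 1201 in SCNT4c, 880.5, 1006 and 1082 in SCNT4c-KG and 3897, 4262 and 4676 in SCNT4c-TDG. It overlapped SCNT4c in SCNT4c-KG (-0.13 ± 0.29, adjusted p = 0.749) and rose with TDG (1.98 ± 0.29, adjusted p = 0.000106), where all 3 libraries were above all 6 others. PSMC3IP, the gene that only shares the letters, had values of 15, 13.1 and 21.6 in SCNT4c, 632, 669 and 456 in SCNT4c-KG and 531, 478 and 348 in SCNT4c-TDG and rose by 5.07 ± 0.56 and 4.70 ± 0.56 (adjusted p = 7.92e-06 and 1.91e-05). Without it the counts were 21 higher and 1 lower of 39 in SCNT4c-KG and 19 higher and 3 lower of 39 in SCNT4c-TDG.

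Set against each other, the treatments differed for 10 of the 40 tested members, and 9 of these were lower in SCNT4c-TDG than in SCNT4c-KG, where 7.07% of all features were higher, 9.13% lower and 16.2% called. The 9 were the alpha genes PSMA6 and PSMA8, the beta gene PSMB3, the base genes PSMC3, PSMC4 and PSMC5 and the lid genes PSMD7, PSMD8 and PSMD13, and PSME4 was higher. With every library scaled to the same total, which moved the median of all features by 0.34, 2 were higher and 6 lower. The median over the members was -0.05, beside -0.02 over all features, and 26 of 40 members had no overlap between the libraries of both treatments (9 above, 17 below), against 44.4% of all features. By role, 6 of 13 tested genes of the 19S and 3 of 16 of the 20S were called; the difference between these shares was not tested. The log2 differences of SCNT4c-TDG from SCNT4c-KG were -2.25 ± 0.33 for PSMD13 (adjusted p = 0.000396), -1.81 ± 0.38 for PSMC4 (adjusted p = 0.00431) and 2.11 ± 0.29 for PSME4 (adjusted p = 0.000242), and the libraries given above did not overlap for these 3 genes. PSMA6 and PSMC3, which differed the most, and PSMC5 have wide entries, and PSMC3, which passed the filter through SCNT4c-KG alone, supports nothing. The lowest beta gene was PSMB1 at -1.86, not called, which passed through the treated groups alone. The highest log2 differences of the other roles, none of them called, were 0.52 ± 0.35 for PSMA5, 2.16 ± 1.11 for PSMB9, 0.66 ± 0.47 for PSMC6, 0.02 ± 0.29 for PSMD12, 0.76 ± 0.32 for PSMD5 and 0.66 ± 0.42 for PSMG2. The lowest among the factors outside the 20S and 19S were -0.12 ± 0.33 for PSMD9, -0.15 ± 0.62 for PSME1 and -0.55 ± 0.46 for PSMG3. Calls of 3 genes were lost without single libraries. PSMB3 was not called without any 1 of the 3 SCNT4c-KG libraries or replicate 1 or 3 of SCNT4c-TDG (-1.23 to -0.98, adjusted p = 0.0506 to 0.117). PSMD7 was not called without replicate 1 or 2 of SCNT4c-KG or 2 or 3 of SCNT4c-TDG (-1.94 to -1.90, adjusted p = 0.0639 to 0.0741), and PSMA8 without replicate 2 of SCNT4c-KG or 1 or 2 of SCNT4c-TDG (-1.23 to -1.20, adjusted p = 0.0688 to 0.073).

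From the 4-cell to the 8-cell stage, 7 of the 40 tested members were higher and none was lower, where 2.62% of all features were higher, 3.16% lower and 5.79% called. The median log2 fold change was 0.80 over the members and -0.31 over all features, and 13 members did not overlap between the groups (12 above, 1 below), against 23.5% of all features. The 7 genes were PSMA4, PSMB5, PSMB7, PSMC5, PSMD6, PSMG2 and PSMG3. PSMA4 had values of 12567, 15455 and 6998 in SCNT8c (1.22 ± 0.32, adjusted p = 0.0392). PSMB5 had values of 3886, 5737 and 1469.6 (1.93 ± 0.39, adjusted p = 0.0205), and PSMB7 of 12495, 12714 and 5630.2 (1.37 ± 0.33, adjusted p = 0.0309). In all 3 genes, replicate 3 was the lowest of SCNT8c and the nearest to SCNT4c. PSMG2 had values of 4847, 6555 and 1634 (2.07 ± 0.42, adjusted p = 0.0211) and PSMG3 of 1668, 1629 and 604 (1.89 ± 0.46, adjusted p = 0.0326), the first of these with the highest log2 fold change of the members called. PSMC5 had values of 3468, 6018 and 1449.6 (1.49 ± 0.42, adjusted p = 0.0486) and PSMD6 of 7868, 8187 and 4114 (1.26 ± 0.31, adjusted p = 0.0329).

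These calls rest on the shared spread and on single libraries. Replicate 3 of SCNT8c, which has another number in its description than in its title, was the lowest of its group for 32 of the 40 members (80.0%), against 41.0% of all features. Without it, 18 members were higher and 1 lower (PSMD3), and 32.3% of all features were called. In limma fits without library a or b of SCNT4c or replicate 1 or 2 of SCNT8c, and in a fit of these 2 groups alone, 0 members were called, with 13 to 21 at an unadjusted p under 0.05, and without library c of SCNT4c 1 was called. edgeR called 9 and DESeq2 19. Several genes that rose in the treated 4-cell groups were not called at the 8-cell stage. PSMA3 was at 526, 666 and 218, PSMB3 at 208, 209 and 143, PSMB4 at 1269, 1291 and 560.0 and PSMD7 at 16.8, 15 and 10.6. PSMC6 was at 613, 778 and 188 and PSMB6 at 1477, 2294 and 723. All 3 PSMB3 libraries were above SCNT4c, and the other 5 genes overlapped it. PSMA3, PSMB4, PSMB6 and PSMC6 were called in some alternative runs, and PSMB3 and PSMD7 were not. Among the other members not called, PSMB9 had the highest log2 fold change (2.06 ± 1.11, adjusted p = 0.227), followed by PSME2, at 329.5, 482 and 83.5 (adjusted p = 0.119). PSMA6, the highest alpha gene, was at 1.30, and PSMD10, the highest assembly factor, at 0.54, while PSMA3 was the lowest alpha gene at 0.74 and PSMG1 the lowest chaperone at 0.44. PSMB1 was at 0 in both groups. PSMD1, PSMD5, PSMD9 and PSME4 were at -0.32, -0.43, -0.26 and -0.68. PSME4, at 782, 771 and 503, was the only member with all SCNT8c libraries below SCNT4c. The lowest log2 fold change of the members was that of PSMD3, at 162, 147 and 407 (-1.16 ± 0.58, adjusted p = 0.201).

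In the donor cells, 20 of 39 tested members were higher than in SCNT4c and 5 were lower, in a comparison in which 38.5% of all 19287 features were higher, 39.7% lower and 78.2% called. The median over the members was 1.12, unchanged with PSMA8 at its bound, beside -0.07 over all features. Of the 39, 3 passed the filter with 1 group under 10 (PSMB8 and PSMD7 in SCNT4c, PSMA8 in PFF), so these had to differ and their calls support nothing. In all, 31 members did not overlap between the groups (22 above, 9 below), against 84.5% of all features. The split depended on the scaling. With every library scaled to the same total 15 members were higher and 10 lower, with quantile normalization 16 and 8, with edgeR 14 and 13 and with DESeq2 14 and 14, and these settings moved the median of all features by -0.60, 0.10, -0.90 and -0.94.

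Several genes with large log2 fold changes in the treated embryos were higher in PFF as well. PSMA3 had values of 3132, 2624 and 3032 (3.52 ± 0.15, adjusted p = 3.57e-06), PSMB3 of 1739.6, 1593 and 1765 (3.78 ± 0.15, adjusted p = 3.21e-06) and PSMB4 of 4663, 4742 and 5217 (3.32 ± 0.21, adjusted p = 2.04e-05). PSMC6 had values of 3656, 3375 and 3745 (4.41 ± 0.21, adjusted p = 6.47e-06) and PSMD7, which entered the fit through PFF alone, of 308, 311 and 321. All PFF libraries of these 5 genes were above all SCNT4c libraries. PSMD2, the other scaffold of the base, had values of 12649.8, 13020.1 and 12329.7 in PFF against 2485, 2415 and 2658 in SCNT4c (2.33 ± 0.08, adjusted p = 1.79e-06). PSMD3 had values of 4196, 4332 and 4435 in PFF (3.18 ± 0.54, adjusted p = 0.00179), above every embryo library. The 5 lower genes were PSMA8, PSMB2, PSMD12, PSMD13 and PSMG1. PSMG1 had values of 1112, 1083 and 962 in PFF (-2.42 ± 0.15, adjusted p = 1.84e-05) and PSMB2 of 2273, 2328 and 2335 (-1.52 ± 0.11, adjusted p = 3.54e-05). PSMD13 differed by -2.15 ± 0.25 (adjusted p = 0.000313) and PSMD12 by -1.20 ± 0.21 (adjusted p = 0.00214). By role, 2 of 7 alpha genes were higher and 1 lower, and 7 of 9 beta genes were higher and 1 lower. Of 6 base genes, 3 were higher (PSMC5, PSMC6 and PSMD2, with PSMC4 the lowest at -0.77), and of 6 lid genes 2 were higher and 2 lower. Over all features, 38.5% were higher, 39.7% lower and 78.2% called. PSMD10 was the only assembly factor called (1.24 ± 0.30, adjusted p = 0.00824). In some alternative runs PSMD10 lost its call, and in some PSMD5 or PSMD9 gained one. PSMD9 was the lowest assembly factor at -0.87 and PSMG2 the highest chaperone at 0.21, both not called. PSMC3IP, at 42.8, 44.6 and 57.2, was higher (adjusted p = 0.00402). PSMA6 was called higher in PFF from the wide entry and turned lower when summed with the assembled transcripts of its locus. It was not called without any 1 of the PFF libraries or library a or c of SCNT4c (1.09 to 1.73, adjusted p = 0.0577 to 0.107). Without library a of SCNT4c PSMC5 was at 0.99, and without library c PSMD12 was at -0.996, both just inside the fold limit.

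**Figure D5:**
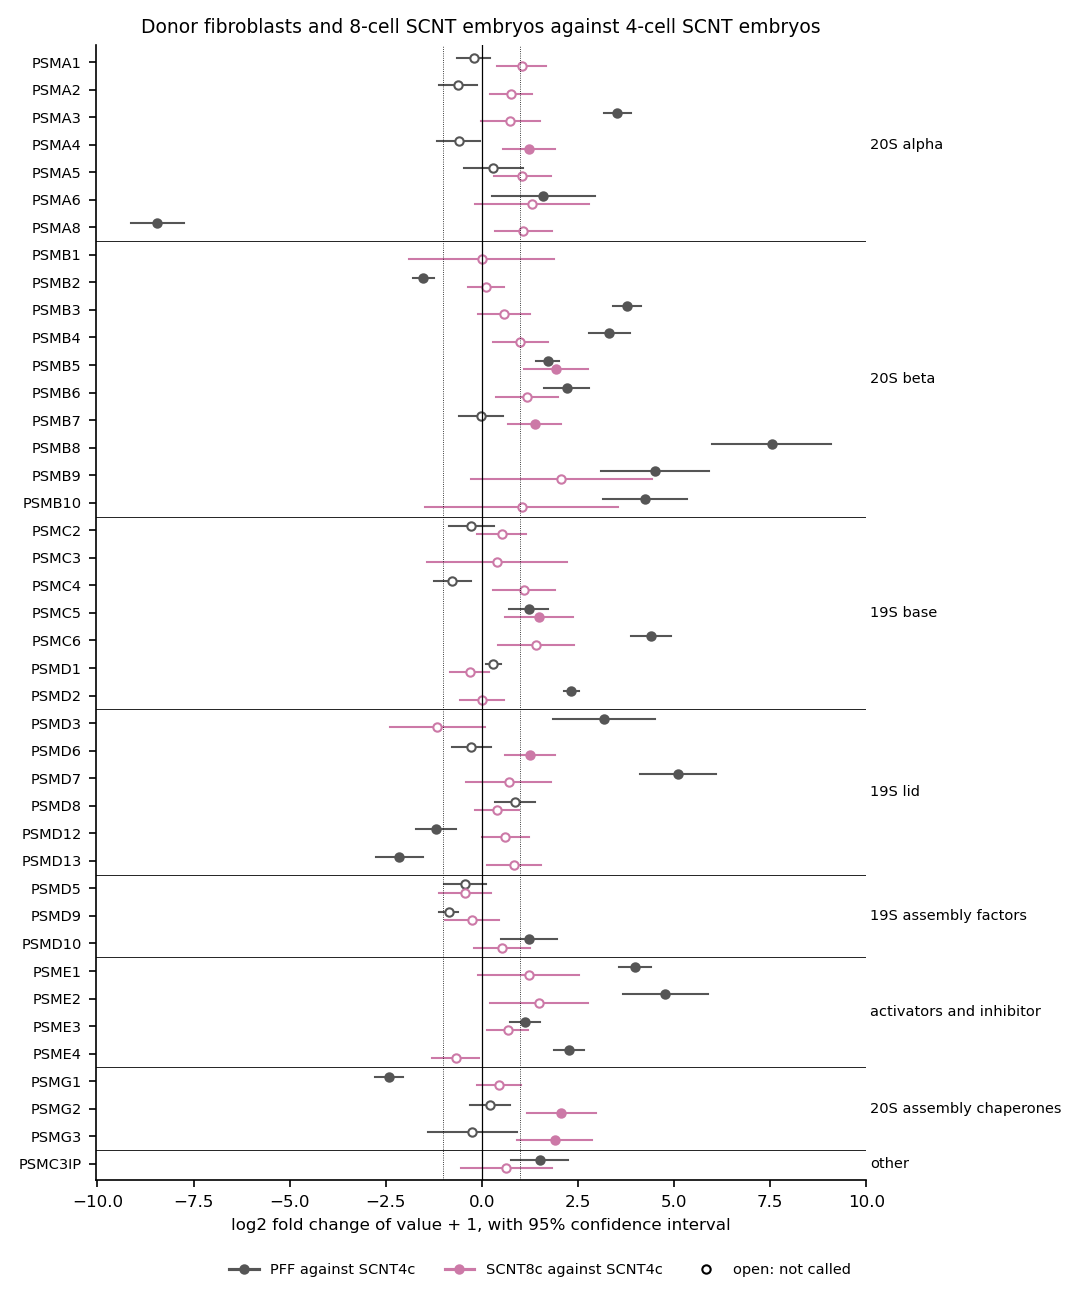
Log2 fold change of the signal + 1 for each tested member, PFF (grey) and SCNT8c (pink) against SCNT4c, with 95% confidence intervals from limma (n = 3 libraries a group). Filled points were called, and the value of PSMA8, at 0 in PFF, depends on the 1 added to the signal; PSMB8, PSMB9, PSMB10 and PSME2 are among the members furthest to the right in PFF.

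All 4 tested activators were higher in PFF, and so were the 3 inducible beta genes, beside 38.5% of all features. The call of PSME3 was lost in some alternative runs. PSME1 had values of 2914, 2886 and 3497 in PFF (3.98 ± 0.17, adjusted p = 4.42e-06) and PSME2 of 2247, 2253 and 2437 (4.78 ± 0.45, adjusted p = 0.000111). PSME4 had values of 5066, 5246 and 5330.0 (2.27 ± 0.16, adjusted p = 3.13e-05) and PSME3 of 3435, 3586 and 3622 (1.12 ± 0.16, adjusted p = 0.000741). PSME1 and PSME2 were above every embryo library, and PSME3 only above the untreated ones. PSMB8 had values of 988, 1076 and 1131 in PFF against 2.37, 14.9 and 2.49 in SCNT4c, and entered the fit through PFF alone. PSMB9 had values of 279.7, 266 and 406 (4.51 ± 0.58, adjusted p = 0.000469) and PSMB10 of 632, 574 and 691 (4.24 ± 0.45, adjusted p = 0.000185). Per kb, PSMB8 made up 28.3% to 31.7% of the sum of PSMB8 and PSMB5 in PFF and at most 1.78% in an embryo library. PSMB10 made up 13.5% to 15.8% of its sum with PSMB7 in PFF and at most 1.70% in embryos. PSMB9 made up 9.85% to 13.7% of its sum with PSMB6 in PFF and at most 5.89% in embryos, the highest of them in SCNT8c.

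The proteasome works with further genes, of which 34 were listed with earlier results of these data known, and 32 were in the table and 26 tested. In SCNT4c-KG 7 of the 26 were higher and 3 lower, in SCNT4c-TDG 10 were higher and 3 lower, and in SCNT4c-TDG against SCNT4c-KG 3 were higher and 6 lower. The shares called were 38.5%, 50% and 34.6%, beside 37.2%, 33.3% and 16.2% of all features. In SCNT8c 0 were called by limma, with 10 at an unadjusted p under 0.05, and edgeR called 1 and DESeq2 5. In PFF 20 of 26 were higher and 2 lower, a share of 84.6% beside 78.2% of all features. These counts include genes that passed the filter only through the group where they were high, UFD1 through SCNT4c-KG, UBA1 through the treated groups, and UBA1 and NFE2L2 through PFF. Their calls were fixed by the filter, so the counts and shares are a description and support nothing. POMP, the chaperone that matures the 20S, had values of 443, 413 and 400.2 in SCNT4c, 12771, 12959 and 11542 in SCNT4c-KG and 8236, 7934 and 8149.6 in SCNT4c-TDG, with log2 fold changes of 4.89 ± 0.25 and 4.27 ± 0.25 (adjusted p = 7.21e-09 and 5.66e-08). UCHL5, a deubiquitinase of the 19S, had values of 34.7, 44.6 and 61.4 in SCNT4c, 1489.8, 1232 and 1405 in SCNT4c-KG and 1810.5, 1915 and 2061 in SCNT4c-TDG, with 4.88 ± 0.37 and 5.37 ± 0.37 (adjusted p = 1.64e-07 and 1.8e-07). Like the low subunit genes, both were above every untreated library after either treatment. SEM1, the smallest lid subunit, which the symbol rule does not reach, had values of 661, 1242 and 1045 in SCNT4c, 19422, 19342 and 17786 in SCNT4c-KG and 4725, 4859 and 5185 in SCNT4c-TDG, with 4.31 ± 0.34 and 2.37 ± 0.34 (adjusted p = 2.82e-07 and 0.000108). AKIRIN2, which carries proteasomes into the nucleus, had values of 118787, 172308 and 173025 in SCNT4c, 17835, 16396 and 15093 in SCNT4c-KG and 9041, 11235 and 24639 in SCNT4c-TDG, and fell, with log2 fold changes of -3.22 ± 0.65 and -3.49 ± 0.65 (adjusted p = 0.0014 and 0.000839). NFE2L1, the transcription factor of proteasome genes, had values of 666, 311 and 309.7 in SCNT4c, 877, 693 and 633 in SCNT4c-KG and 339.5, 268 and 266 in SCNT4c-TDG and was not called against SCNT4c (adjusted p = 0.088 and 0.364). The entries of POMP and NFE2L1 are wide, by 26.8 and 28.1 kb, and that of UCHL5 by 0.266 kb.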

How the data were processed

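RNA of 15 libraries was amplified with SMARTer and sequenced as 150-bp pairs. Per the study's methods and the submitters' processing notes, the authors trimmed reads with Trimmomatic 0.39, aligned them with STAR 2.5.3a to Sscrofa11.1, merged the annotation with transcripts that StringTie 2.1.2 had assembled, and ran HTSeq for the read count of each feature. The strand setting is not given in the sources used here. The deposited normalized signal is the read count of a feature divided by 1 factor for each library, and 100% of the values came out as whole reads at a tolerance of 0.01. The table held 43535 entries, of which 241 repeats were removed, and 28224 of the 43294 left were known genes.

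Groups came from the sample titles. log2(signal + 1) of features with a mean of at least 10 was fitted with limma 3.58.1 (trend) in R 4.3.3, with the 12 embryo libraries in 1 fit and the PFF and SCNT4c libraries in another. All p-values are limma's, two-sided and adjusted by the Benjamini-Hochberg method over all features of the fit, 18942 and 19287. An exact permutation test of 3 against 3 libraries cannot go below 0.1. Alternatives were edgeR 4.0.16 and DESeq2 1.42.0 on the recovered reads, other pseudocounts (0.1 and 10), filters (a mean above 0, and of at least 50) and scalings, no fold limit, a fit of 2 groups alone, sums with assembled transcripts of the locus, a replicate block and leaving out each library. The limma fit was tested on simulated reads for SCNT4c-KG against SCNT4c. Named are, in each role and comparison, the members with the highest and lowest log2 fold change, those called where a role has at most 5, and the alternative subunits. The members and lists were chosen with earlier results of these data known. Promoters are RefSeq annotation release 106 of Sscrofa11.1, matched by symbol for the 48 proteasome genes. The values of 1 further pathway gene are not reported here.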

Additional observations from a re-analysis of the deposited data

Results flagged for a closer look

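For 10 members the effects of the 2 treatments differed by the test of the difference itself, SCNT4c-TDG against SCNT4c-KG in the fit of all embryo libraries (limma, adjusted over all features), and 9 of them were lower in SCNT4c-TDG. In the 20S core these were PSMA6 with a log2 difference of -3.37 ± 0.69 (adjusted p = 0.00418), PSMA8 with -1.40 ± 0.35 (adjusted p = 0.0128) and PSMB3 with -1.13 ± 0.32 (adjusted p = 0.024). In the 19S base they were PSMC3 with -4.52 ± 0.86 (adjusted p = 0.00252), PSMC4 with -1.81 ± 0.38 (adjusted p = 0.00431) and PSMC5 with -1.76 ± 0.42 (adjusted p = 0.00969). In the 19S lid they were PSMD7 with -2.01 ± 0.52 (adjusted p = 0.0155), PSMD8 with -1.27 ± 0.27 (adjusted p = 0.00538) and PSMD13 with -2.25 ± 0.33 (adjusted p = 0.000396). PSME4 was higher in SCNT4c-TDG, with 2.11 ± 0.29 (adjusted p = 0.000242). Over all features, 16.2% were called in this comparison and 44.4% had no overlap. All 10 genes had no overlap between the 3 libraries of SCNT4c-TDG and the 3 of SCNT4c-KG. They were picked by their calls in these same libraries, so this adds no support. PSMA6, PSMC3 and PSMC5 are counted over entries wider than the gene. PSMC3 passed the filter on low values through SCNT4c-KG alone, so it had to differ and its test supports nothing. The SCNT4c-KG libraries were the shallowest, and the summed oocyte and maternal markers were 26465 to 51005 in them and 11245 to 16974 in SCNT4c-TDG. The part of these in the differences was not tested.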

How the results depend on the processing

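The number of members called kept within 1.5 times the reported one in every alternative run for SCNT4c-KG (20 to 25, reported 23), SCNT4c-TDG (22 to 26, reported 23), SCNT4c-TDG against SCNT4c-KG (7 to 11, reported 10) and PFF (23 to 31, reported 25). Calls were followed through every alternative run in which a member was still tested, which for PSMB1 in SCNT4c-KG was 13 of 17. Of the called members, 21 of 23 in SCNT4c-KG and 22 of 23 in SCNT4c-TDG kept their call in all of these runs. So did 6 of 10 between the treatments and 18 of 25 in PFF. The exceptions were PSME2 and PSMG2 in SCNT4c-KG, PSMB1 in SCNT4c-TDG, and PSMA8, PSMB3, PSMD7 and PSMD8 between the treatments. In PFF they were PSMA6, PSMB5, PSMC3IP, PSMC5, PSMD10, PSMD12 and PSME3. In SCNT8c 0 of 7 did. There the count of 7 was 3 with all features of a mean above 0, 19 with DESeq2 and 0 in a fit of the 2 groups alone, where limma called 0.0% of all features and 13 members had an unadjusted p under 0.05. It was 0 to 19 when each library was left out in turn, 19 without replicate 3 of SCNT8c, 1 without library c of SCNT4c and 0 without each of the other four, where 15 to 21 members had an unadjusted p under 0.05. PSMA6 in PFF turned to -1.11 when summed with the assembled transcripts of its locus. The causes were not tested. Scaling moved the median of all features by up to 0.22, 0.26 and 0.37 in SCNT4c-KG, SCNT4c-TDG and SCNT8c. With a replicate block in SCNT4c-TDG against SCNT4c-KG, 1 member was higher and 10 lower, and 10 calls were shared, but same-numbered libraries did not deviate together (correlations of -0.00117, -0.00205 and 0.0246, and 1 of 3 highest with its own number), so they were not taken as pairs. No paired analysis was possible because the SCNT4c libraries carry conflicting numbers, in the comparisons with that group. For members near 0, such as PSMB1 and PSMC3, few reads limit the precision, and for the wide entries a low value does not bound the level of the gene.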

Other observations

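Some genes that supply ubiquitin or tagged proteins to the proteasome also differed between the groups. RPS27A, which encodes ubiquitin fused to a ribosomal protein, had values of 450.4, 1326 and 1047 in SCNT4c, 28408, 39984 and 32617 in SCNT4c-KG and 8886, 10189 and 7882 in SCNT4c-TDG. It rose in both treated groups (5.28 ± 0.41 and 3.38 ± 0.41, limma adjusted p = 2.07e-07 and 2.29e-05). UBA6, an activating enzyme of ubiquitin with an entry wider than the gene by 18.1 kb, had values of 282, 393 and 345 in SCNT4c, 160.1, 164 and 148 in SCNT4c-KG and 1043, 1077 and 696 in SCNT4c-TDG. It fell in SCNT4c-KG (-1.10 ± 0.39, adjusted p = 0.0377) and rose in SCNT4c-TDG (1.45 ± 0.39, adjusted p = 0.0101), with no overlap between any 2 of these groups. RAD23B, a shuttle that carries tagged proteins to the 19S, had values of 5504, 3249 and 2808 in SCNT4c, 4997, 5398 and 4681 in SCNT4c-KG and 1118, 1124 and 725 in SCNT4c-TDG, and fell in SCNT4c-TDG (-1.93 ± 0.31, adjusted p = 0.000251).

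NPLOC4, an adaptor of the unfoldase VCP, was at 86, 21.8 and 1.66 in SCNT4c libraries, against 4436, 4172 and 4253 in PFF, a log2 fold change of 7.94 ± 1.20 (adjusted p = 0.00103). By the means it was 117-fold higher in PFF. The 1.66 of library c is below the value of 3 reads there (2.49), so the log2 value depends on few reads. These genes were named after their values were seen.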
